A study of Caenorhabditis elegans with 4 samples.

Results

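LIN-61 peaks in the centres of chromosomes II, III, IV and V of Caenorhabditis elegans were described from chromatin immunoprecipitation sequencing (ChIP-seq) of third-stage (L3) larvae. A peak was a member when its midpoint lay in II 5093116 to 10186230, III 4594567 to 9189133, IV 5831265 to 11662528 or V 6974717 to 13949432 of the WormBase WS220 genome, the middle section of each chromosome when it is cut into 3 equal lengths. These windows span 22.5 Mb in all. Of the 14662 peaks in the authors' whole-series list, 1554 were members. The replicate 1 list held 883 of 9958 and the replicate 2 list 1349 of 13486. The rule used position alone, so the spacing, width, score and replicate support given here did not choose the members. The centre of chromosome I is not among the windows.

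The animals were of the wild-type strain N2, grown at 20 degrees Celsius as mixed populations of males and hermaphrodites, with no treatment or mutant group. There were 2 ChIP libraries, made with an affinity-purified rabbit polyclonal antibody against LIN-61 named HM4077, and 2 libraries of input DNA that were not analysed here. Whole larvae were used, so each peak is an average over tissues. The labels call the libraries replicates without naming separate cultures, so SDs over the 2 replicates may measure technical spread only. The p-values, and the SDs given over chromosomes, rest on 4 chromosomes of these same libraries. They do not measure spread between samples.

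LIN-61 is a protein built of MBT repeats, a fold that binds methylated lysines on histone tails, and it binds histone H3 methylated at lysine 9. It belongs to the synMuv B group, named for a multivulva phenotype seen when such a gene is lost together with a synMuv A gene, and the group acts in transcriptional repression. In C. elegans the outer parts of the autosomes, the arms, are rich in repeats and in H3 lysine 9 methylation. The centres hold most of the conserved and broadly expressed genes. A peak of a heterochromatin-binding protein in a centre therefore lies outside the domain where that mark is most abundant. The genes under the peaks were not analysed here, because the gene table at hand is of another genome build.

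Peaks were sparse in all 4 centres, and chromosome III had the most per Mb in each list. In replicate 1 the centre of III held 253 peaks, or 55.1 per Mb. In replicate 2 it held 354, or 77.0 per Mb. The centre of IV held 231 and 336 peaks, 39.6 and 57.6 per Mb. The centre of II held 189 and 282 peaks, 37.1 and 55.4 per Mb. The centre of V had the lowest density, with 210 and 377 peaks, 30.1 and 54.1 per Mb. The order III, IV, II, V was the same in both replicates, but on II, IV and V replicate 2 spanned only 54.1 to 57.6 per Mb. The gap between the replicates of 1 chromosome was larger than the gaps among those 3 chromosomes. Over the 4 centres the density was 49.6 ± 15 peaks per Mb (SD, n = 2). Peaks covered 1.35% of the bases in replicate 1 and 2.76% in replicate 2. No read counts are in the files, so the depth behind this difference between the replicates is unknown.

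The arms of the same 4 chromosomes held 165 ± 30 peaks per Mb (SD, n = 2), 3.66 times the centres in replicate 1 and 3.10 times in replicate 2. The difference was smaller when chains of nearby peaks were counted as 1 each. Peaks were joined into chains wherever fewer than 5 kb separated neighbours. Counted as chains, the centres held 16.7 and 26.5 per Mb in replicates 1 and 2, and the arms 28.1 and 39.0. The arms thus exceeded the centres by 1.58 ± 0.15-fold in chains, against 3.38 ± 0.40-fold in peaks (SD, n = 2). When only peaks less than 500 bp apart were merged, the fold was 3.02 ± 0.29 (SD, n = 2). A centre chain held 2.35 peaks on average in replicate 1 and 2.26 in replicate 2, and an arm chain 5.11 and 4.76. With a fixed joining distance, densely set chains run together, so the chain count in the arms is also lowered by the density itself. The density difference, averaged over chromosomes, was 120 ± 47 peaks per Mb (SD, n = 4 chromosomes) and was positive on each of the 4 chromosomes in either replicate. Flipping the signs of the 4 chromosome differences in an exact two-sided permutation test gave p = 0.13 (2 of 16 sign patterns), the smallest p it allows, and 0.13 after Benjamini-Hochberg adjustment over 4 such tests. This test cannot pass 0.05 with 4 chromosomes, so its p does not measure the size of a difference.

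**Figure D1:**
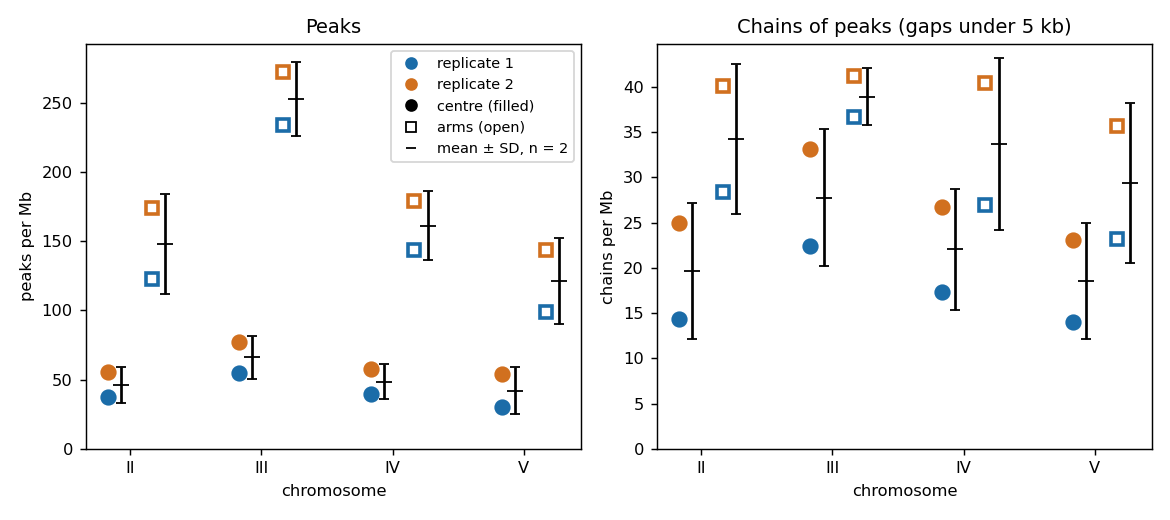
Peaks per Mb (left) and chains of peaks per Mb (right) in the centre and the arms of chromosomes II to V; points are the replicates, and bars the mean ± SD of 2 replicates. Centres and arms lie far apart in peaks (39.3 and 60.0 per Mb against 143 and 186 over the 4 chromosomes) and nearer together in chains (16.7 and 26.5 against 28.1 and 39.0).

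Within the windows the peaks did not thin out evenly towards the middle. When each window was divided into a left, a middle and a right part of equal length, the middle part held 49.6 peaks per Mb in replicate 1 and the left and right parts 32.1 and 36.0. In replicate 2 the middle part held 69.8 and the outer parts 54.3 and 55.9. The middle part was the densest on II, III and V in both replicates, though narrowly in replicate 2 on II (61.8 against 60.7 on the right) and V (61.9 against 58.9 on the left). On IV the right part was the densest, with 50.9 and 65.9 per Mb, though the middle part followed closely in replicate 2 at 64.8. Differences between these parts were not tested.

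In 500 kb bins the whole-series list ranged from 17 to 78 peaks, with a median of 33 over 43 bins. By that list the densest bin lay on III from 5641850 to 6141849, where the replicates held 51 and 52 peaks. The sparsest by that list lay on V from 11712075 to 12212074, with 8 and 13 peaks. Replicate 2 held more peaks than replicate 1 in most bins, with 4 bins the other way and 2 equal. Across the 43 bins the counts of the replicates had a Spearman's rho of 0.60 and a Pearson's r of 0.69. This describes the profiles only, as neighbouring bins share their libraries and depth. Taken by chromosome, the rho was 0.85 over the 9 bins of III and 0.44 over the 10 bins of II.

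Some bins differed sharply between the lists. At the right end of the II window, from 9639673 to 10139672, replicate 1 held 12 peaks and replicate 2 held 48. On IV from 10996897 to 11496896 the counts were 23 and 55. On IV from 6496897 to 6996896 the whole-series list held 61 peaks, while replicate 1 held 17 and replicate 2 held 23. Of the whole-series peaks in that bin, 34 (55.7%) overlapped no peak of either replicate and 1 overlapped both. Most of the 34 lay in a single stretch, from 6668498 to 6728496. It includes the group from 6710557 to 6728496 described below, so the bin and that group are not separate observations. These bins were picked out after their values had been seen.

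**Figure D2:**
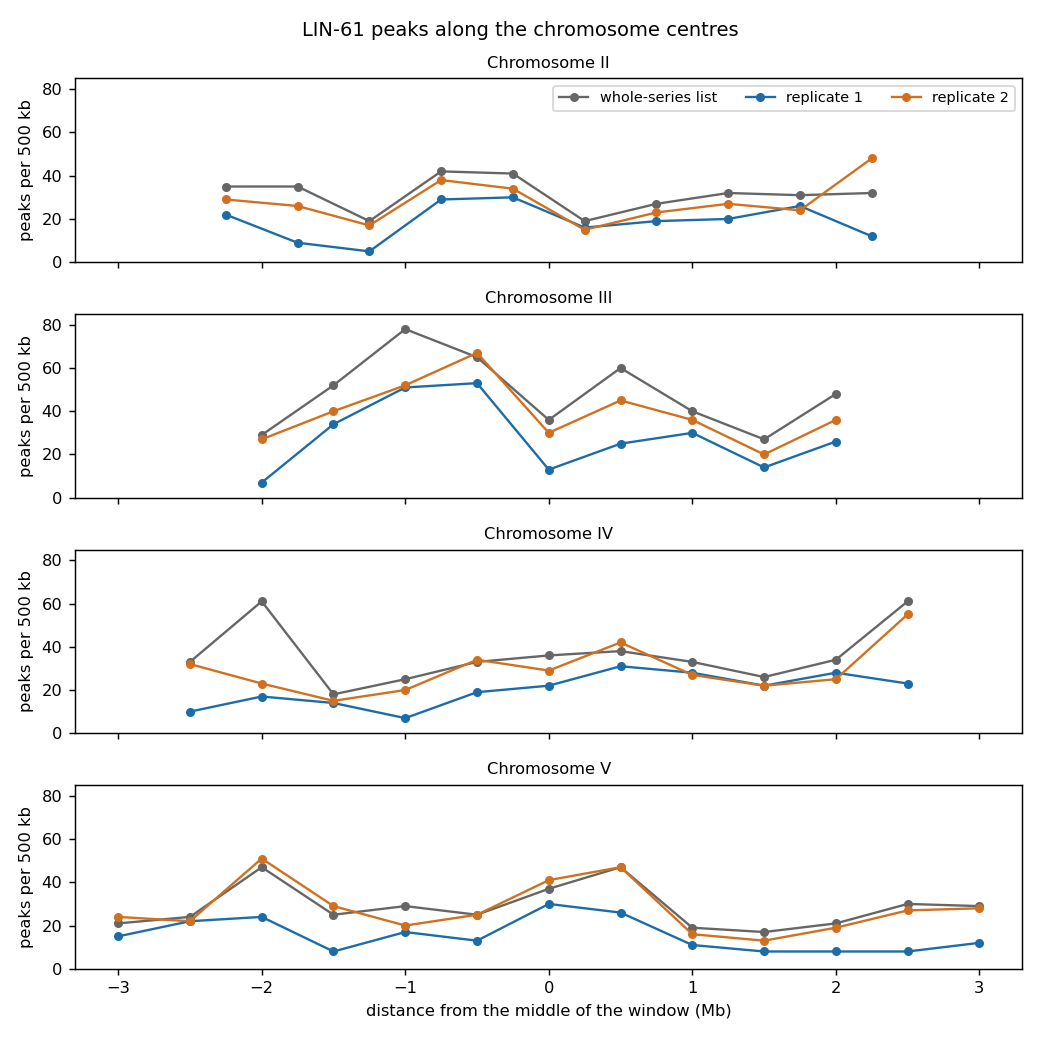
Number of peaks in 500 kb bins along the 4 chromosome centres, by distance from the middle of the window in Mb, for each replicate and the whole-series list. The broad hump left of the middle of III appears in both replicates (53 and 67 peaks in its densest bin of each), while the last bin of II holds 12 peaks in replicate 1 and 48 in replicate 2.

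Spacing between members ranged from under 500 bp to over 100 kb. Between consecutive peaks of the whole-series list the median gap was 2272 bp, with quartiles at 298 bp and 17.5 kb. Of the 1550 gaps, 32.4% were under 500 bp, 9.35% from 500 bp to 1 kb, 16.4% from 1 to 5 kb, 18.9% from 5 to 20 kb and 23.0% were 20 kb or more. In replicates 1 and 2, 32.3% and 32.0% of the gaps were under 500 bp, 12.1% and 18.6% from 5 to 20 kb, and 30.1% and 25.4% were 20 kb or more. Median gaps were 2052 and 2690 bp in replicates 1 and 2. Gaps of 100 kb or more numbered 67 in replicate 1, 30 in replicate 2 and 24 in the whole-series list. Long empty stretches were thus more frequent in the replicate with fewer peaks.

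Most members had a near neighbour, but fewer than in the series as a whole. In replicate 1, 77.7% of the centre peaks had another peak of the list within 5 kb, against 90.1% of all peaks of that list. In replicate 2 the share was 77.2%, against 89.5%. In the whole-series list it was 79.0%, against 90.3%. The arms stood at 92.4% and 92.1% in the replicates. The difference between arms and centres, averaged over chromosomes, was 14.5 percentage points with an SD of 2.5 over the 4 chromosomes and was positive on 4 of 4 in both replicates. The same exact permutation test gave p = 0.13 and 0.13 after adjustment. Denser peaks have nearer neighbours by arithmetic, and how much of this difference the density accounts for was not tested.

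**Figure D3:**
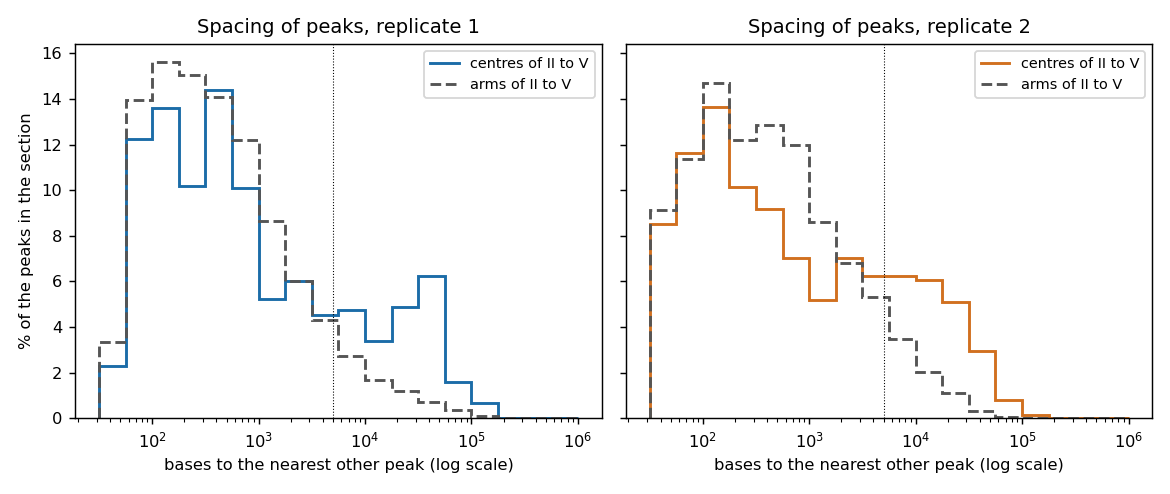
Distance from each peak to the nearest other peak of its list, on a log scale, as the share of the peaks in the centres (solid) and the arms (dashed) of II to V in each replicate; the dotted line marks 5 kb. In both replicates the centres have their main mass under 1 kb (62.7% and 60.2% of peaks), and a larger share of peaks beyond 5 kb than the arms.

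At the far end of the range were isolated peaks, 20 kb or more from any other. There were 113 in replicate 1, or 12.8% of the centre peaks, and 112 in replicate 2, or 8.30%. In the arms the shares were 2.11% and 1.22%. The whole-series list held 117 isolated members. Their median width was 266 bp and that of the other members 296 bp, and their median score was 7.65 against 6.04. Both replicates overlapped 26.5% of the isolated members (95% interval 18.8 to 35.5) and 26.5% of the others (24.2 to 28.9). Neither replicate overlapped 12.8% of the isolated members and 20.5% of the others, and these differences were not tested. Intervals on shares are exact Clopper-Pearson intervals. They hold counting error alone and take neighbouring peaks as independent.

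The longest stretches with no whole-series peak were 217.9 kb on V (12068427 to 12286343), 185.4 kb on III (6685921 to 6871344), 131.2 kb on II (8298036 to 8429235) and 128.3 kb on IV (10553440 to 10681708). The series has only 2 ChIP libraries, so the whole-series list is not independent of the replicate lists. Few replicate peaks lay in these stretches. That on V held 0 peaks of replicate 1 and 2 of replicate 2, and that on III held 1 of each. That on II held 1 and 0, and that on IV held 0 and 1. The longest gap of each replicate exceeded these. In replicate 2 it was 231.1 kb on III (6685930 to 6917046), where replicate 1 held 2 peaks and the whole-series list 3. In replicate 1 it was 443.6 kb on II, from 5901555 to 6345152. There replicate 2 held 20 peaks and the whole-series list 25, so that this stretch was empty in replicate 1 only.

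Local groups were defined as chains of 3 or more members with gaps under 5 kb. The whole-series list held 194 of them, with 962 members or 61.9% of the total, against 81.8% of all peaks of that list in chains of 3 or more. A further 133 chains were pairs and 326 members stood alone. Replicate 1 had 107 groups with 61.6% of its centre peaks, against 82.0% over its whole list. Replicate 2 had 163 groups with 58.6%, against 80.3%. A typical group was small: the median held 4 peaks in each list and spanned 4.24 kb, 4.50 kb and 4.75 kb in replicate 1, replicate 2 and the whole-series list. Groups of 10 or more numbered 10, 10 and 14. Chromosome III had the largest share of members in groups, 71.1%, against 61.6% on II, 57.7% on IV and 56.4% on V. In replicate 1, III (64.8%) lay just below II (65.1%). In replicate 2 it led by less, with 61.9% against 59.7% on V and 58.5% on II.

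Group members scored lower than single members in the whole-series list, with widths and support near those of single members. Single members had a median score of 8.38, pairs 7.06, members of groups of 3 to 9 peaks 5.84 and members of larger groups 4.85. Their median widths were 275, 310, 295 and 268 bp. Both replicates overlapped 30.7% of the single members (95% interval 25.7 to 36.0), 22.2% of those in pairs, 26.8% in groups of 3 to 9 and 24.0% (17.9 to 31.0) in larger groups. In replicate 2 the median score was 7.50 for single peaks, 6.42 in pairs, 5.35 in groups of 3 to 9 and 5.44 in larger ones. In replicate 1 no such fall was seen (5.59 for single peaks and 5.98 in groups of 10 or more).

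Groups of each replicate were set against the groups and peaks of the other. Of the 107 groups of replicate 1, 72 (67.3%) overlapped a group of replicate 2 and 98 (91.6%) overlapped at least 1 of its peaks. Of the 163 groups of replicate 2, 74 (45.4%) overlapped a group of replicate 1 and 116 (71.2%) a peak. A group covers more bases than a peak and meets an overlap more easily. The same shares for groups of the arms or of the whole lists were not worked out. These counts therefore do not show whether groups in the centres differ from others. Of the 194 whole-series groups, 139 held peaks of both replicates, 49 of replicate 2 alone, 5 of replicate 1 alone and 1 of neither. In 68 groups, no member overlapped peaks of both replicates.

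The longest group lay on III from 7708323 to 7738544. It spanned 30.2 kb with 13 whole-series peaks that covered 68.6% of it, and the replicates placed 18 and 14 peaks there, covering 13.6 and 17.6 kb. It was also the largest group of replicate 1 by peak number. The second, on III from 7431119 to 7456186, spanned 25.1 kb with 11 peaks, but replicate 1 had a single peak in it and replicate 2 had 9. The third, on II from 9101459 to 9122976, spanned 21.5 kb with 11 peaks, and held 7 and 6 replicate peaks. These covered 2.46 and 1.94 kb, and only 1 member of the group overlapped peaks of both replicates. Its members from 9101459 to 9114018 overlapped replicate 2 alone, and those further right replicate 1, both or neither. The fourth, on IV from 6710557 to 6728496, had 15 whole-series peaks over 17.9 kb with a highest score of 5.98. Replicate 1 had no peak in it and replicate 2 had 2. The fifth, on III from 5621247 to 5637946, spanned 16.7 kb with 11 peaks, 6 and 9 in the replicates, and a highest score of 43.3. On V the longest was 13.9 kb, from 10712420 to 10726368, with 14 peaks and 3 and 17 in the replicates. The longest group thus held many peaks of both replicates. In others 1 or both replicates covered little, with 0.148 kb of replicate 1 in the second and 0 and 0.453 kb in the fourth.

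The largest groups by peak number in replicate 2 and in the whole-series list also differed between the lists. In replicate 2, 26 peaks were strung over 16.04 kb on II from 9808407 to 9824447, with scores up to 7.19. Replicate 1 had 4 peaks there and the whole-series list 8. In the whole-series list, 18 peaks lay within 14.4 kb on IV from 11191560 to 11205931, where the replicates had 2 and 13. Both groups were picked out after their values had been seen.

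Members were narrow. Median widths were 237 and 280 bp in replicates 1 and 2 and 292 bp in the whole-series list, whose quartiles were 199 and 520 bp. The narrowest peak was 146 bp wide in each list, in centres and arms alike. The lower quartile thus lies near the smallest width in the lists. Medians varied little among chromosomes, from 225 bp on III to 245 bp on II in replicate 1 and from 269.5 to 290 bp, again on III and II, in replicate 2. Replicate 2 peaks were wider than replicate 1 peaks on 4 of 4 chromosomes. The arms exceeded the centres in median width by 50.0 bp on average over chromosomes (55.8 in replicate 1 and 44.3 in replicate 2), positive on 4 of 4 chromosomes in both replicates, with p = 0.13 in the exact permutation test and 0.13 after adjustment.

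A few broad peaks held much of the sequence in peaks. Of the 1554 members, 187 (12.0%) were 1 kb or wider, against 14.2% of all whole-series peaks, and they held 43.9% of the bases in members. The share was 3.51% in replicate 1 and 8.82% in replicate 2, against 7.38% and 11.3% over those lists. Broad members numbered 57 on V, 49 on III, 43 on IV and 38 on II. The replicates divided them differently: 89 of the 187 contained 2 or more replicate 1 peaks and 93 contained 2 or more replicate 2 peaks, while 32 had exactly 1 of each. Of all broad members, 140 (74.9%) overlapped peaks of both replicates, 47 of replicate 2 alone and none of replicate 1 alone. In the arms 88.0% of the peaks of this width overlapped both (1199 of 1362, 95% interval 86.2 to 89.7), against an interval of 68.0 to 80.9 for the members. Both intervals take neighbouring peaks as independent, and the difference was not tested.

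The widest member of each chromosome shows how far the division can go. On V the peak at 7915800 to 7925038 was 9239 bp wide with a score of 41.1, and each replicate had it as a single peak, of 8945 bp and 9207 bp. On III the peak at 6566400 to 6574785 was 8386 bp wide with a score of 107.3. Replicate 2 had 2 peaks there, the wider of 8112 bp, but replicate 1 split it into 12, the widest of 1145 bp. On IV the peak at 9056933 to 9062597 was 5665 bp wide and scored 30.8, with 4 and 8 replicate peaks. On II the peak at 9814469 to 9818552 was 4084 bp wide but scored only 10.1. Replicate 1 had 2 peaks in it and replicate 2 had 9, part of the string of 26 described above.

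Scores are the peak caller's own values as the authors deposited them, and are used here only to rank peaks within a list. Members ranked low: their median score stood at percentile 37.9 of the replicate 1 list and 38.4 of the replicate 2 list, against 54.1 and 53.8 for the arms. Of the whole-series members, 13.8% were in the highest-scoring 25% of the list, and 28.4% of the arm peaks were. Wider members scored higher, with a Spearman's rho of 0.62 across the 1554 members (0.56 in replicate 1 and 0.57 in replicate 2), a description across peaks that share libraries. The relation was loose at the top. Of the 156 members in the highest-scoring 10% (score of at least 22.5), 78 were 1 kb or wider and 40 were under 500 bp. The broad ones were found in both replicates in 73 of 78 cases (93.6%, 95% interval 85.7 to 97.9), and the narrow ones in 27 of 40 (67.5%, 50.9 to 81.4), with the other 13 in replicate 2 alone. At the other end, 37 of the 187 broad members scored under 10.

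**Figure D4:**
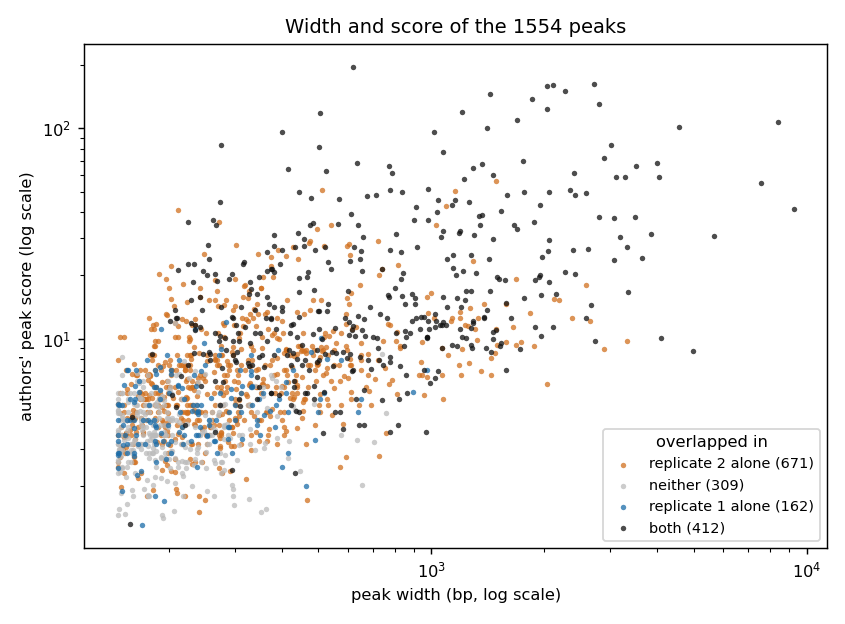
Width against the authors' score for the 1554 members of the whole-series list, both on log scales; colour gives the replicate lists that overlap each peak. Peaks found in both replicates (412) lie towards high width and score, and those found in neither (309) crowd the narrow, low-scoring corner, with a median width of 191 bp.

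The 3 highest-scoring members of each chromosome among those found in both replicates ranked from 6 to 333 among the 14662 peaks of the list and had a median width of 1943.5 bp. The highest of all, on II at 10174382 to 10175000, was 619 bp wide and scored 195.7. Its best score was 176.6 in the replicate 1 list and 206.3 in the replicate 2 list. It was isolated, 22.0 kb from its nearest neighbour, and is the last member before the right edge of its window. On V the peaks at 7718207 to 7720922, 10267856 to 10269892 and 13882116 to 13883546 scored 161.7, 158.7 and 145.6. On III the leaders were 8441028 to 8443134 (score 160.8), the 8386 bp peak named above, and 5505841 to 5506858 (96.5). On IV they were 8071921 to 8074190 (150.1), 8466538 to 8468395 (137.1) and 9410060 to 9412088 (123.3). The others on II were 9201910 to 9203605 (109.5) and a narrow peak of 401 bp at 9656009 to 9656409 (95.5). No member that missed either replicate scored above these leaders on its chromosome. Of the 12, 5 stood alone with no member within 5 kb, namely the 3 on II and 2 of those on V.

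Replicate support was lower in the centres than in the series as a whole. Of the 1554 members, 412 (26.5%, 95% interval 24.3 to 28.8) overlapped a peak of both replicates by at least 1 bp, against 37.2% of all whole-series peaks. A further 671 (43.2%) overlapped replicate 2 alone, 162 (10.4%) replicate 1 alone, and 309 (19.9%, 17.9 to 22.0) neither, against 14.3% of the whole list in neither. Members found in both had a median width of 658 bp and a median score of 13.6. Those in replicate 2 alone had 288 bp and 6.38, those in replicate 1 alone 229.5 bp and 4.50, and those in neither 191 bp and 3.48. Support in both replicates was 30.5% on II, 28.2% on III, 27.3% on V and 20.9% on IV (95% interval 17.1 to 25.2).

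Seen from the replicates, 555 of the 883 replicate 1 peaks (62.9%) were found in replicate 2, against 74.7% over that list. Of the 1349 replicate 2 peaks, 461 (34.2%) were found in replicate 1, against 47.1%. Chromosome IV again had the lowest share, 53.7% and 31.0%, though on V replicate 2 was nearly the same at 31.3%. Averaged over both lists and the 4 chromosomes, 48.7% of centre peaks and 63.8% of arm peaks were found in the other replicate. The difference of 15.1 percentage points (SD 5.2, n = 4 chromosomes) was positive on 4 of 4 chromosomes in both replicates, with p = 0.13 in the exact permutation test and 0.13 after adjustment.

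Support rose with width, and the centres lay below the arms in most width classes. In replicate 1, 49.4% of the centre peaks under 200 bp were found in replicate 2, and 65.1% from 200 to under 500 bp, 84.9% from 500 bp to under 1 kb and all 31 at 1 kb or more. The arms had 58.8%, 76.3%, 96.0% and 99.3%. In replicate 2 the centres had 17.4%, 32.0%, 53.5% and 71.4%, and the arms 25.7%, 44.3%, 72.0% and 88.3%. The intervals of centre and arm did not overlap in 7 of the 8 classes, the exception being replicate 1 at 1 kb or more. They take neighbouring peaks as independent, so this describes the shares and is not a test. A wider peak meets an overlap of 1 bp more easily, and peaks of the other list are sparser in the centres. The part of width itself and of that density in these shares was not tested.

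Split by score, the centres lay below the arms in most classes, but the intervals of many classes overlapped. These intervals too take neighbouring peaks as independent and are not a test. Among whole-series peaks the share found in both replicates was 3.11%, 12.2% and 44.4% in the 3 lower-scoring 25% classes of the centres and 1.503%, 12.5% and 47.8% in those of the arms, with intervals that overlapped in each. In the highest-scoring 25% it was 78.5% (95% interval 72.5 to 83.8) against 88.9% (87.6 to 90.1). Of the replicate 2 peaks in the lowest class 20.5% were found in the centres and 24.2% in the arms, with overlapping intervals, as in the class above it. In the third class the shares were 39.2% (33.8 to 44.9) and 52.2% (50.0 to 54.4), and in the highest 70.1% (63.1 to 76.5) and 85.9% (84.4 to 87.3). In replicate 1 the intervals were apart in the second-lowest class (55.3% against 67.6%) and overlapped in the others, with 95.3% against 97.8% in the top one. Peaks of the other list are also sparser in the centres, and the part of that density in these shares was not tested.

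**Figure D5:**
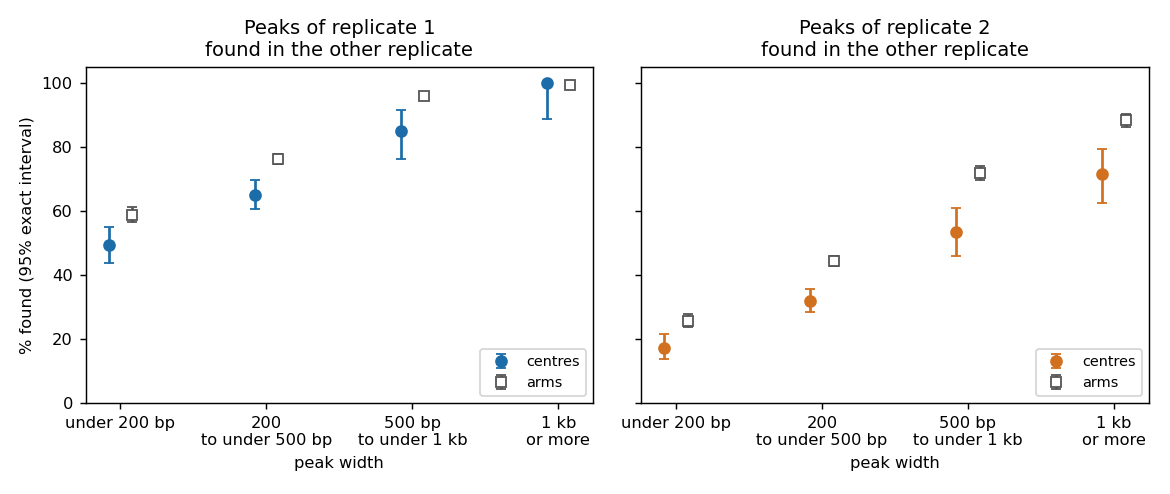
Share of replicate 1 peaks found in replicate 2 (left) and of replicate 2 peaks found in replicate 1 (right) by peak width, in the centres (filled) and arms (open) of II to V; bars are exact 95% binomial intervals. In replicate 2 the centres rise from 17.4% under 200 bp to 71.4% at 1 kb or more, below the arms in each class.

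At the window edges the scores of the nearest peaks, outside and inside, showed no common direction over the 8 edges. At the left edge of II the last peak outside (5076003 to 5076253) scored 2.61 and the first inside (5097173 to 5097876) 3.23. At its right edge the isolated peak of score 195.7 was inside and a peak of score 2.43 at 10197036 to 10197232 outside. On III the scores outside and inside were 5.12 and 13.9 at the left edge, and 6.41 and 4.82 at the right. On IV they were 13.3 and 4.13, then 3.48 and 24.6. On V they were 4.60 and 32.5, then 19.1 and 8.38.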

How the data were processed

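Reads were aligned with BWA to ce10, per the submitters' processing notes, and peaks were called with MACS on WormBase WS220, per the file headers. Tool versions, the threshold, filters and control of peak calling, and how the whole-series list was made, are not stated in the sources used here. Each deposited list holds peak positions with a score of unstated meaning, which served only for ranking within that list. The read depth is unknown. No columns of other samples were present in the 3 lists.

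Samples were grouped by title. Arms are the rest of each chromosome, taken to end where the last peak of the 3 lists ends. Gaps are the bases between neighbouring peaks of a list, chains within the windows join gaps under 5 kb, and a peak is found when it overlaps a peak of the other list by 1 bp. Centres and arms were compared by flipping the signs of the 4 chromosome differences in an exact two-sided permutation test (16 sign patterns), with Benjamini-Hochberg adjustment over 4 tests. No gene location or sequence was analysed, as the planned annotation of the same build was not at hand. Named were the 3 highest-scoring members per chromosome found in both replicates, the widest, the 5 longest groups and the longest of each chromosome, the longest empty stretches and the peaks at the window edges. The members, lists and tests were chosen with earlier results of these data known. The functions were tested on simulated peaks. Alternatives were the higher-scoring 50% (scores at or above the list median), merging of peaks less than 500 bp apart, windows trimmed by 500 kb, other distances and overlap rules, covered bases, the whole-series list and each replicate left out. Python 3.11.15, NumPy 2.4.6, pandas 2.3.3 and SciPy 1.17.1 were used.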

Additional observations from a re-analysis of the deposited data

How the results depend on the processing

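The 4 comparisons of arms with centres kept their direction under each alternative run, at p = 0.13 in the exact permutation test throughout, which is the smallest possible p and so says nothing of stability. The arm-to-centre fold ran from 2.86 in the whole-series list to 4.93 in the higher-scoring 50%, and from 3.10 to 3.66 with a replicate left out. The neighbour difference of 14.5 percentage points became 34.0 in the higher-scoring 50%, 26.8 after merging and 8.99 at 20 kb, and the width difference of 50.0 bp became 90.7 in the higher-scoring 50% and 128.4 after merging. The centre density of 49.6 peaks per Mb became 18.4 in the higher-scoring 50%, 33.7 after merging and 69.1 in the whole-series list; by covered bases it was 20.5 kb per Mb. It ran from 39.3 to 60.0 with a replicate left out. The median width of 258.5 bp became 404.0, 306.5 and 292.0 bp under those 3 alternatives, and 237 to 280 with a replicate left out. The share with a neighbour within 5 kb (77.5%) became 50.4%, 57.3% and 79.0%, and 78.4% in trimmed windows; it was 61.5% within 1 kb and 89.5% within 20 kb, and 77.2% to 77.7% with a replicate left out. The share in groups of 3 or more (60.1%) became 26.5% in the higher-scoring 50%, 31.8% after merging, 49.7% with a joining gap of 2 kb and 68.1% with 10 kb, and 58.6% to 61.6% with a replicate left out. The cause of these moves was not tested. Members found in both replicates (26.5%) became 56.8% in the higher-scoring 50%, 10.6% under a reciprocal overlap of 50% and 16.02% under a midpoint rule. For replicate 1 peaks the share found (62.9%) became 82.3%, 23.9% and 53.5%, and for replicate 2 peaks (34.2%) 51.1%, 15.6% and 23.3%. Stricter overlap rules admit fewer pairs by construction; the cause of the rise with score was not tested. The arm and centre alternatives for neighbours and the midpoint rule for arms were chosen once the data had been seen. No paired analysis was possible across groups of libraries because ChIP replicate numbers are shared with input libraries only, which entered no comparison here. The tests of arms against centres were paired within each chromosome. Unknown depth limits any reading of the differences in peak number between the replicates.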
